A study of Mus musculus with 7 samples.

Results

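The genes described here are 10 cardiac transcription factors, Gata4, Gata6, Nkx2-5, Tbx5, Tbx20, Mef2a, Mef2c, Mef2d, Hand2 and Srf, chosen by name out of 56980 genes in a table of mouse myocardial RNA sequencing. The tissue came from wild-type male C57BL/6J mice, a standard inbred strain, bought when 8 weeks old. In 3 mice the left coronary artery was ligated to cause myocardial infarction (MI mice), and 4 mice had the operation without ligation (sham-operated mice). Hearts were taken 4 days after surgery, and each mouse gave 1 library. Values are FPKM, the fragments on a gene scaled by its length and by the total fragments of that library.

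These proteins form the core regulatory network of the heart muscle cell, the cardiomyocyte. GATA factors, the homeodomain protein NKX2-5, T-box factors, MEF2 proteins, HAND2 and SRF bind short DNA motifs near one another, contact each other on DNA, and switch on genes for sarcomere proteins, ion channels and natriuretic peptides. They pattern the heart in the embryo and stay expressed in adult muscle, and several of them are also expressed in cardiac fibroblasts, smooth muscle and epicardium.

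Depths were 19977713 to 23473543 fragments in the sham-operated mice and 21781014 to 23610871 in the MI mice. The defining markers of the tissue were present, and the 12 cardiomyocyte marker genes (Myh6, Tnnt2, Tnni3, Actc1, Ttn, Myl2, Ryr2, Pln, Mb, Actn2, Tnnc1 and Mybpc3, for the sarcomere, calcium handling and myoglobin) summed to 15815 to 16993 FPKM in the sham-operated mice and 11165 to 15637 in the MI mice. The ventricular list (Myl2, Myl3, Irx4, Hey2) summed to 2451 to 2720 FPKM in the sham-operated mice and to 1187, 2376 and 1461 in MI replicates 1 to 3. The atrial list (Myl7, Myl4, Sln, Bmp10) stayed between 0.438 and 1.78 in all mice, with Bmp10 at 0. MI replicate 2 stood apart from the other MI mice. Its mitochondrial genes held 28.2% of fragments, against 13.6% and 14.9% in MI replicates 1 and 3 and 26.5% to 27.4% in the sham-operated mice. The 8 fibroblast markers summed to 232 FPKM in this mouse and the 8 macrophage markers to 242, against 1923 to 2492 and 1139 to 1327 in the other MI mice and 122 to 145 and 200 to 254 in the sham-operated mice. The tests of the 9 transcription factor genes that passed the filter are therefore given with and without MI replicate 2. Fits without it rest on MI replicates 1 and 3 alone. It was set apart by its values in these same data, and the p-values without it do not allow for that choice. In whole tissue, fewer cardiomyocytes and less RNA per cardiomyocyte cannot be told apart.

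In the sham-operated mice the levels spanned a wide range. Hand2 was the highest at 36.6 ± 2.61 FPKM (SD, n = 4), above Nkx2-5 at 20.96 ± 0.564, Srf at 19.3 ± 0.569 and Mef2d at 16.5 ± 0.821. Gata4 followed at 10.1 ± 1.82, then Tbx20 at 8.08 ± 0.568, Gata6 at 6.21 ± 0.546, Mef2a at 4.77 ± 2.20 and Tbx5 at 4.17 ± 0.314. Mef2c was far below at 0.428 ± 0.0167 FPKM. Neighbours in this order had ranges that did not overlap among the sham-operated mice, except Gata4 with Tbx20, Gata6 with Mef2a and Mef2a with Tbx5. The order depends partly on the gene lengths behind the deposited values, which exceeded the exon length of GENCODE M21 for every gene but Hand2, as with Mef2c at 42007 against 15715 bases and Nkx2-5 at 2882 against 1719. With M21 lengths, Nkx2-5 came to 35.1 ± 0.946 FPKM beside Hand2 at 36.6 ± 2.61, Mef2c to 1.14 ± 0.0445, and Gata6 moved ahead of Tbx20.

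**Figure D1:**
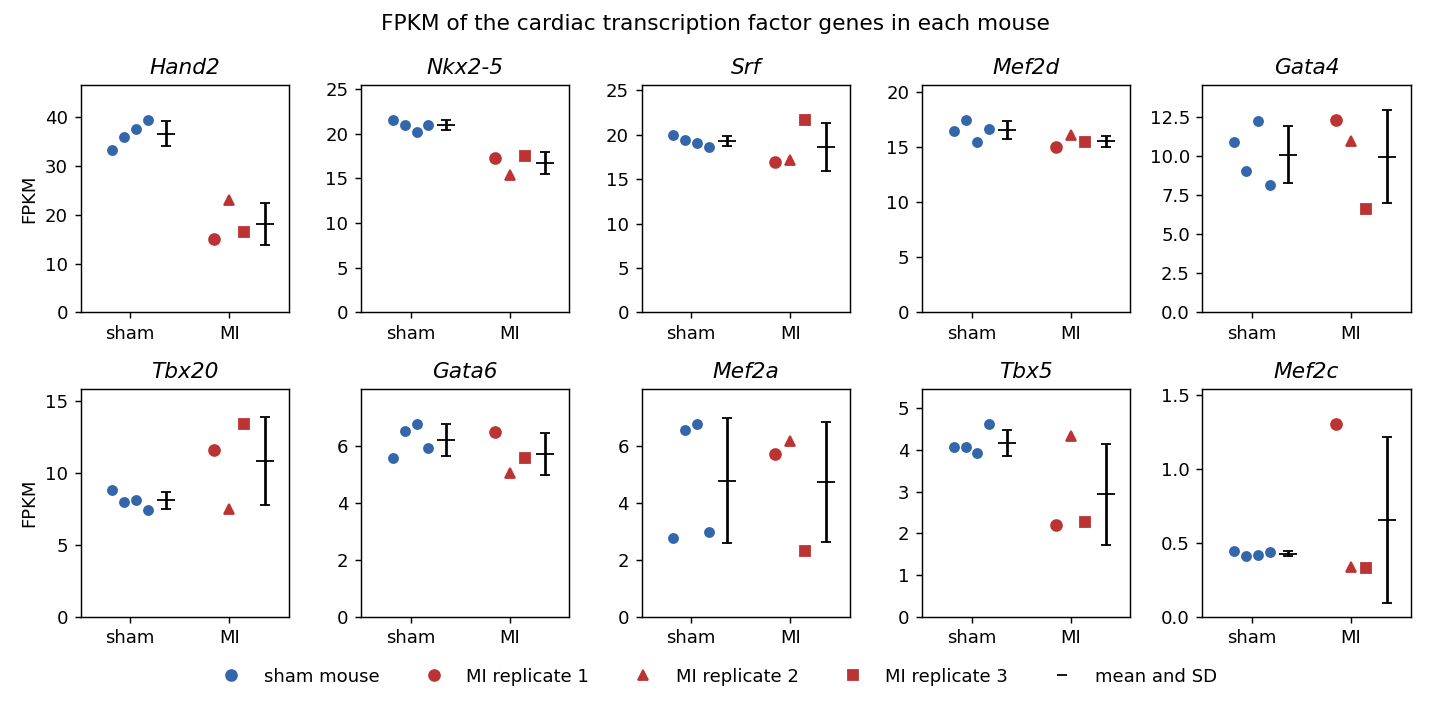
FPKM (vertical axis, from 0, a scale of its own in each panel) of the 10 genes in 4 sham-operated and 3 MI mice, in order of sham level, with 1 symbol per mouse and bars for mean and SD. In these deposited values, all MI mice lie below all sham-operated mice only for Hand2 and Nkx2-5 (as TPM only for Hand2), and MI replicate 2, the triangle, lies near the sham-operated mice for Tbx20 and Tbx5.

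Promoter sequences are shown for Hand2, the gene with the largest difference between the groups, and for Srf, whose window holds the motif of its own protein. Each is the 250 bases before a RefSeq gene start on GRCm38.p6, read 5′ to 3′ on the strand of the gene. The Hand2 window is chr8:57320733-57320982 on the plus strand, where GENCODE M21 also places exons of the antisense RNA Hand2os1, and the Srf window is chr17:46556163-46556412 on the minus strand. Capitals mark the motifs found, which do not overlap one another.
Hand2: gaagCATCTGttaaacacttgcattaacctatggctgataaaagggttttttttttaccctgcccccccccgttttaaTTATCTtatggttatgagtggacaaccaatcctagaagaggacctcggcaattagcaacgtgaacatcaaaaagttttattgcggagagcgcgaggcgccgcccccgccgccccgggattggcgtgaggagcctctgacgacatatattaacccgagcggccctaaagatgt
Srf: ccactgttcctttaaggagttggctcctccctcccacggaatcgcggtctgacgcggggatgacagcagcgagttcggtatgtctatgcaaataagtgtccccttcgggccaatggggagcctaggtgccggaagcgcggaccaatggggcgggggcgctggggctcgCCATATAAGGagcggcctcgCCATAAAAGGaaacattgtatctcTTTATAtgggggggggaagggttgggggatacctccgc
The motifs searched, on both strands, were a GATA site (AGATAA), an NKX2-5 site (TNAAGTG), a T-box site (AGGTGT), a HAND E-box (CATCTG), the MEF2 box, the CArG box bound by SRF, and a TATA box (TATAAA). In the Hand2 promoter the capitals are a HAND E-box 246 to 241 bases before the start and, on the other strand, a GATA site 172 to 167 bases before it. In the Srf promoter they are CArG boxes at 82 to 73 and 62 to 53 bases and, on the other strand, a TATA box at 38 to 33 bases before the start. CArG boxes were found in 1.47% of the 32851 promoters of this length, MEF2 boxes in 0.508%, GATA sites in 9.99%, NKX2-5 sites in 10.1%, T-box sites in 11.8%, HAND E-boxes in 14.4% and TATA boxes in 12.4%. The Nkx2-5 window, chr17:26841566-26841815 on the minus strand, held none of these letters. It lies inside the GENCODE M21 span of the gene, before an internal RefSeq start. RefSeq promoters were matched for 7 of the 10 genes, with 9 windows, 3 of them for Mef2c. The Mef2c windows that begin at chr13:83523406 and chr13:83573357 also lie inside the gene span. Over these windows, 1 held the T-box site and 1 more the HAND E-box, both of Mef2c, 2 more held the TATA box, also of Mef2c, and those of Mef2a, Mef2d and Tbx20 held none. Gata4, Gata6 and Tbx5 were not matched.

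Among the 10 genes the largest difference between MI and sham-operated hearts was in Hand2, whose FPKM in MI mice averaged 49.6% of that in sham-operated mice, and Nkx2-5 averaged 79.8%, with no overlap between the groups in either gene as deposited. Tbx5 was lower and Tbx20 higher in MI replicates 1 and 3 but not in replicate 2, and the groups overlapped and the 95% interval included 0 for both, as for Gata4, Gata6, Mef2a, Mef2d and Srf. Of the 9 genes that passed the filter on low values (3 or more mice at 1 FPKM or above), limma, adjusted over all 11431 genes tested, called 0 higher and 0 lower at the 0.05 level, where 0.0175% of genes were called higher and 0.00875% lower, and the count from voom weights on the recovered fragments was also 0. At an unadjusted p under 0.05, 2 of the 9, Hand2 and Nkx2-5, were lower and 0 were higher, against 9.85% lower and 29.5% higher of all genes. The same 2 genes had every MI mouse below every sham-operated mouse, against 9.0% of all genes, and 0 had every MI mouse above, against 16.1%. Without MI replicate 2, 3 of the 9 (Hand2, Nkx2-5 and Tbx5) were called lower at an adjusted p under 0.05 and 1 (Tbx20) higher, where 14.7% of all genes were called lower and 57.0% higher. As that mouse was set apart by its values in these data, these calls are not an independent check of the fit to all mice.

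The difference for each gene is the mean of log2(FPKM + 1) in MI mice minus that in sham-operated mice. The 9 genes had a median of -0.08, with 8 negative and 1 positive, whereas the median of all genes tested was 0.21. That median moved to 0.42 when libraries were rescaled to the same total (TPM), to 0.11 when mitochondrial genes were left out, to 0.02 with scaling by the median log-ratio and to -0.03 with quantile normalization. The unadjusted calls over all genes were 3370 higher and 1126 lower as deposited, 4142 and 560 as TPM, 2854 and 1648 without mitochondrial genes, 2265 and 2141 with the median log-ratio, and 1904 and 2400 with quantiles. Among the 9 genes these calls, all lower, were 2 as deposited and 1 as TPM. They were 4 without mitochondrial genes, 6 with the median log-ratio and 4 with quantiles. Hand2, Nkx2-5 and Tbx5 were lower and Tbx20 higher in MI mice under each of these scalings, whereas the small negative differences of Gata4, Gata6, Mef2a, Mef2d and Srf turned positive as TPM. In a check added after the data were seen, every MI mouse stayed below every sham-operated mouse under all 4 scalings for Hand2, and under all but TPM for Nkx2-5. Gata6 and Srf, which overlapped as deposited, did not overlap and were lower under the same 3 scalings, while both overlapped as TPM.

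**Figure D2:**
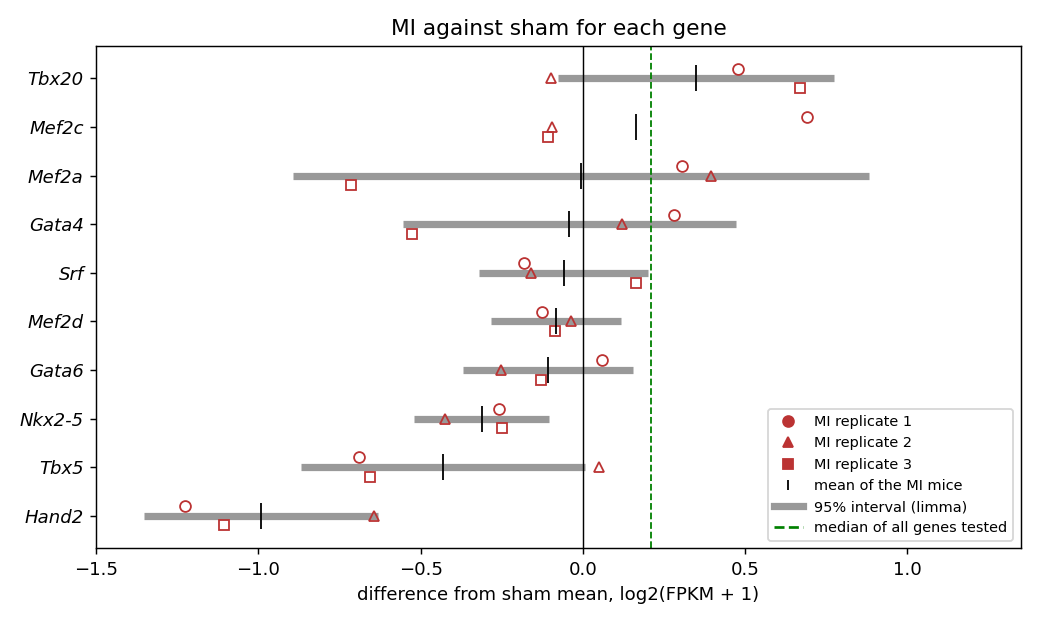
Difference of each MI mouse from the mean of the 4 sham-operated mice on the log2(FPKM + 1) scale (horizontal axis), with the mean of the 3 MI mice (vertical tick) and its 95% interval from limma (grey bar, not drawn for Mef2c, which did not pass the filter). Hand2 lies lowest, from -1.23 to -0.64 in the MI mice, and the dashed line is the median of all genes tested at 0.21.

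Hand2 encodes a basic helix-loop-helix factor needed for growth of the right ventricle in the embryo, and lies at chr8:57320983-57324633 (GRCm38, plus strand). Its values were 33.3, 35.9, 37.6 and 39.5 FPKM in sham replicates 1 to 4 and 15.02, 23.0 and 16.4 FPKM in the MI mice, replicates 1 to 3, on 769 to 2076 fragments. Every MI mouse was below every sham-operated mouse, MI replicate 2 included. The difference was -0.99 with a standard error of 0.15 and a 95% interval of -1.35 to -0.63, or -1.20 relative to the median gene. It ranked 25 of 11431 genes by unadjusted p (0.000289) and 46 from the lowest by size, and its limma adjusted p was 0.108. Without MI replicate 2 it was -1.17, with a limma adjusted p of 2.94e-05. Hand2 shares 461 exon bases, 19.6% of its exon length, with Hand2os1, a long noncoding RNA on the other strand. Since it is not stated whether counting used the strand, reads from these bases cannot be assigned. Hand2os1 was at 1.12 to 1.58 FPKM in the sham-operated mice and at 0.769, 1.09 and 0.712 FPKM across MI replicates 1 to 3. Its MI mice too lay below all sham-operated mice, with a difference of -0.31 and a limma adjusted p of 0.109.

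Nkx2-5 encodes an NK-class homeodomain factor that marks cardiomyocytes from their first progenitors onward, and lies at chr17:26838664-26845009 (GRCm38, minus strand). Its values were 21.6, 20.99, 20.2 and 21.03 FPKM in sham replicates 1 to 4. They were 17.3, 15.3 and 17.5 FPKM in MI replicates 1 to 3. The groups did not overlap as deposited, and MI replicate 2 had the lowest value of all. The difference was -0.31 with a standard error of 0.089 and a 95% interval of -0.52 to -0.10, and the limma adjusted p was 0.108 (unadjusted 0.00922). Without MI replicate 2 the difference was -0.25, with a limma adjusted p of 0.00443. As TPM the difference shrank to -0.12 (standard error 0.15, unadjusted limma p 0.438) and the groups overlapped, with 43.6 to 45.3 in the sham-operated mice and 45.9, 32.3 and 45.2 in MI replicates 1 to 3. The values of Nkx2-5 in the sham-operated mice were among the steadiest of the set, with an SD of 0.037 on the log2 scale against a median of 0.068 over 2031 genes with like fragment numbers.

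The T-box genes Tbx5 and Tbx20 had opposite signs. Tbx5, a partner of GATA4 and NKX2-5 in conduction and septation, lies at chr5:119832668-119885219 (GRCm38, plus strand). It was at 4.06, 4.06, 3.92 and 4.63 FPKM in sham replicates 1 to 4 and at 2.20, 4.34 and 2.28 FPKM in the MI mice, replicates 1 to 3. MI replicates 1 and 3 lay below every sham-operated mouse, and MI replicate 2 lay among them. The difference was -0.43 with a 95% interval of -0.87 to 0.0063 and a limma adjusted p of 0.129, and -0.67 with 0.000179 without MI replicate 2. Tbx20, a factor that adult cardiomyocytes need to keep their contraction and rhythm, lies at chr9:24718138-24774303 (GRCm38, minus strand). It was at 8.82, 7.96, 8.09 and 7.45 FPKM in sham replicates 1 to 4 and at 11.6, 7.46 and 13.4 FPKM across MI replicates 1 to 3. Here too MI replicates 1 and 3 lay outside the sham range, above it, and MI replicate 2 lay at its lower end. The difference was 0.35 with a standard error of 0.18, a 95% interval of -0.076 to 0.77 and a limma adjusted p of 0.174, and 0.57 with 0.000796 without MI replicate 2. The difference of Tbx20 relative to the median gene was 0.14, smaller than its standard error.

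Gata4 and Gata6 encode zinc finger factors that activate natriuretic peptide and sarcomere genes and overlap in function in the heart. Gata4, at chr14:63198922-63271692 (GRCm38, minus strand), was at 10.9, 9.08, 12.2 and 8.17 FPKM in sham replicates 1 to 4 and at 12.3, 10.9 and 6.62 FPKM in the MI mice, replicates 1 to 3. The highest and the lowest value of all 7 mice were both from MI mice. The difference was -0.04 with a 95% interval of -0.56 to 0.47 and a limma adjusted p of 0.888, and -0.12 without MI replicate 2 (limma adjusted p 0.659). Gata4 varied more than most genes within the sham group, with an SD of 0.24 on the log2 scale that exceeded that of 94.7% of 1782 genes with like fragment numbers (median 0.067).

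Gata6, at chr18:11052064-11085635 (GRCm38, plus strand), was at 5.58, 6.54, 6.78 and 5.94 FPKM in sham replicates 1 to 4 and at 6.49, 5.04 and 5.59 FPKM across MI replicates 1 to 3. The groups overlapped. The difference was -0.11 with a 95% interval of -0.37 to 0.15 and a limma adjusted p of 0.462. It was -0.035 without MI replicate 2 (limma adjusted p 0.749) and -0.19 without MI replicate 1. Gata6 shares 93 exon bases with 1010001N08Rik on the other strand.

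Mef2a, Mef2c and Mef2d encode MADS-box factors that bind AT-rich boxes in muscle genes and are held inactive by class II histone deacetylases. Mef2d, at chr3:88142372-88172086 (GRCm38, plus strand), was the most abundant of them. It was at 16.5, 17.5, 15.5 and 16.6 FPKM in sham replicates 1 to 4 and at 15.1, 16.1 and 15.5 FPKM in the MI mice, replicates 1 to 3. The groups overlapped, and the difference was -0.08 with a 95% interval of -0.28 to 0.12 and a limma adjusted p of 0.459, and -0.11 without MI replicate 2 (limma adjusted p 0.174). Mef2d shares 531 exon bases, 8.87% of its exon length, with 1700113A16Rik on the other strand.

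Mef2a, at chr7:67231163-67372858 (GRCm38, minus strand), was at 2.77, 6.57, 6.77 and 2.97 FPKM in sham replicates 1 to 4 and at 5.73, 6.17 and 2.32 FPKM across MI replicates 1 to 3. The mice fell at a low level (sham replicates 1 and 4 and MI replicate 3) and a high level (the other 4), with 2.32 to 2.97 and 5.73 to 6.77 FPKM, and both levels held mice of both groups. The low values rested on 1350 to 1530 fragments and the high ones on 3077 to 3920. The SD in the sham-operated mice, 0.57 on the log2 scale, exceeded that of 98.8% of 1000 genes with like fragment numbers, whose median was 0.067. The difference between MI and sham was -0.00 with a 95% interval of -0.89 to 0.88 and a limma adjusted p of 0.993, and -0.20 without MI replicate 2 (limma adjusted p 0.669). Mef2a shares 302 exon bases, 2.06% of its exon length, with Lysmd4 on the other strand.

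Mef2c, at chr13:83504034-83667080 (GRCm38, plus strand), was at 0.446, 0.410, 0.417 and 0.437 FPKM in sham replicates 1 to 4 and at 1.31, 0.335 and 0.327 FPKM in the MI mice, replicates 1 to 3. MI replicate 1 alone stood high, with 1196 fragments against 319 to 420 in the other 6 mice, and MI replicates 2 and 3 lay below every sham-operated mouse. As deposited, Mef2c reached 1 FPKM in too few mice to be tested with the other genes, although on M21 lengths it was at 1.10 to 1.19 FPKM in the sham-operated mice and at 3.49 FPKM in MI replicate 1. Fitted with no filter, its difference was 0.16 with a standard error of 0.20 and a limma adjusted p of 0.596.

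Srf encodes serum response factor, a MADS-box protein that drives sarcomere, smooth muscle and immediate early genes according to its cofactor, and lies at chr17:46548329-46556175 (GRCm38, minus strand). It was at 19.97, 19.5, 19.1 and 18.6 FPKM in sham replicates 1 to 4 and at 16.9, 17.1 and 21.7 FPKM across MI replicates 1 to 3. The MI mice lay on both sides of the narrow sham range, and MI replicates 1 and 3, alike in their markers, were on opposite sides. The difference was -0.06 with a 95% interval of -0.32 to 0.20 and a limma adjusted p of 0.683, and -0.0085 without MI replicate 2 (limma adjusted p 0.943).

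Members of a family were also compared within each mouse. Tbx5 minus Tbx20 on the log2 scale was -0.96 to -0.59 in the sham-operated mice and -1.98, -0.66 and -2.14 in MI replicates 1 to 3, a change of -0.78 (exact two-sided permutation p = 0.229, 0.914 adjusted over the 5 pairs compared). MI replicates 1 and 3 lay below the sham range and replicate 2 within it, and the change was -1.25 without replicate 2 and -0.51 without replicate 3. The change was 0.07 for Gata4 minus Gata6 (exact p = 0.857), -0.17 for Mef2a minus Mef2c (exact p = 0.743), 0.08 for Mef2a minus Mef2d (exact p = 0.914) and 0.25 for Mef2c minus Mef2d (exact p = 0.686). The groups overlapped in all 5 pairs. With 3 against 4 mice, the smallest p this exact test can give is 0.0571.

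The mean of log2(FPKM + 1) over the 12 cardiomyocyte marker genes differed from the sham mean by -0.74, -0.07 and -0.54 in MI replicates 1 to 3. Each transcription factor was therefore also set against these genes in the same mouse. As the mean of these genes was lower in each MI mouse, a gene with no difference of its own has a positive change on this measure. Of the 10 genes, only Tbx20 had an MI minus sham difference (0.35) above the median of all genes tested (0.21). Hand2 minus this mean was -4.02 to -3.77 in the sham-operated mice and -4.39, -4.47 and -4.47 in MI replicates 1 to 3. The 3 MI mice lay close together and below every sham-operated mouse, a change of -0.55 (exact permutation p = 0.0571, two-sided and as low as 3 against 4 mice allow, and 0.408 adjusted over the 10 genes). For Tbx5 the change was 0.01 (exact p = 0.857, adjusted 0.857), and for Nkx2-5 it was 0.14 (exact p = 0.629, adjusted 0.698). Relative to the cardiomyocyte genes, Nkx2-5 was higher than in any sham-operated mouse in MI replicates 1 and 3 and lower in replicate 2. Tbx20 had the largest positive change, 0.80 (exact p = 0.171, adjusted 0.408), and Mef2d, Srf, Gata4, Gata6, Mef2a and Mef2c had changes from 0.34 to 0.61 (smallest exact p = 0.114, for Mef2d). Without MI replicate 1 these changes were smaller, at 0.10 for Gata4, 0.11 for Gata6, 0.14 for Mef2a and 0.20 for Mef2c. In these 7 genes the groups overlapped, and the value of MI replicate 1 exceeded that of every sham-operated mouse.

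**Figure D3:**
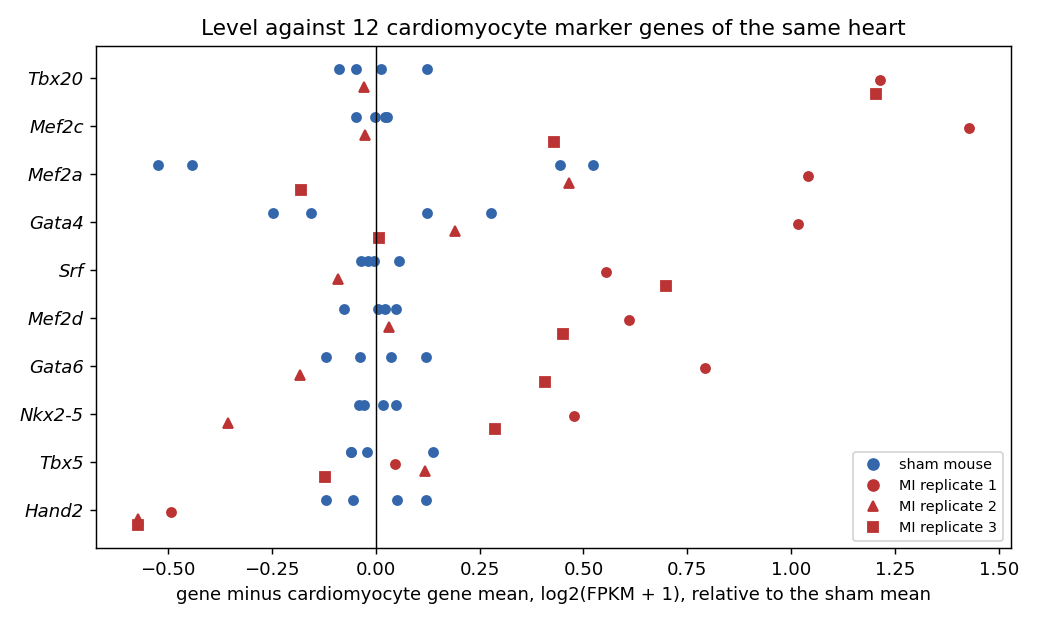
Log2(FPKM + 1) of each gene minus the mean over 12 cardiomyocyte marker genes of the same mouse, drawn relative to the mean of the 4 sham-operated mice (horizontal axis, 0 is the sham mean), with 1 symbol per mouse. Hand2 is the gene whose 3 MI mice all lie below the sham-operated mice, and Tbx20 the gene with MI replicates 1 and 3 both more than 1 above. The marker mean itself was lower in the MI mice, so a gene with no difference of its own lies above 0 in them.

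Other cardiac transcription factors were examined as a list of 26 genes, of which 12 passed the filter. In this list 3 were higher and 2 lower at an unadjusted p under 0.05 (29.5% and 9.85% of all genes), 1 and 2 had groups that did not overlap (16.1% and 9.0% of all genes), and the median difference was 0.08. Irx4, a homeodomain factor of ventricular muscle, was at 10.1 to 14.3 FPKM in the sham-operated mice and at 7.39, 7.67 and 6.90 FPKM in the MI mice, replicates 1 to 3, a difference of -0.67 (limma adjusted p 0.108; -0.70 and 0.00191 without MI replicate 2), and like Hand2 it was low in MI replicate 2 as well. Tcf21, a factor of epicardium and fibroblasts that is also in the fibroblast list, was at 1.54 to 2.16 FPKM in the sham-operated mice and at 9.26, 2.14 and 10.3 FPKM across MI replicates 1 to 3. Its difference was 1.303, that of Tbx18, another epicardial factor, was 0.66, and that of Heyl, a Notch target, was 0.58. These were 1.90, 0.94 and 0.96 without MI replicate 2 (limma adjusted p 0.000160 for Heyl), and for Heyl that mouse, at 5.64 FPKM, lay below the sham range of 5.85 to 7.31 while the other MI mice lay above it. Among the nearest relatives of the 10 genes, Gata5 was at 0.0272 to 0.169 FPKM in the sham-operated mice and at 1.303, 0.337 and 1.43 FPKM in the MI mice, replicates 1 to 3, and Mef2b at 0.0214 to 0.112 and at 0.276, 0.177 and 0.191 FPKM. Both had every MI mouse above every sham-operated mouse but did not pass the filter. The epicardial and mesothelial list (Wt1, Upk3b, Upk1b, Msln, Krt19, Lrrn4) summed to 4.16 to 9.69 FPKM in the sham-operated mice and to 29.4, 20.9 and 43.5 FPKM in MI replicates 1 to 3, and its part in the Gata5 and Tbx18 values was not tested. Hand1, the paralogue of Hand2, and Nkx2-6 were listed at 0 in all mice.

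Cofactors and regulators of these factors numbered 23, all tested, with 4 higher and 6 lower at an unadjusted p under 0.05 (all genes 29.5% and 9.85%), 4 and 6 without overlap (16.1% and 9.0%) and a median of 0.15. Myocd encodes myocardin, the SRF coactivator of muscle genes, and was at 2.49 to 3.95 FPKM in the sham-operated mice and at 1.54, 2.41 and 1.55 FPKM across MI replicates 1 to 3, a difference of -0.61 (limma adjusted p 0.108) that was -0.75 without MI replicate 2 (limma adjusted p 0.00248). The other coactivators of SRF had the opposite sign, with Mrtfb at 2.82 to 3.56 FPKM in the sham-operated mice and 5.09, 4.91 and 4.63 FPKM in the MI mice, replicates 1 to 3 (difference 0.49, adjusted p 0.108 by limma, and 0.48 with 0.00190 without MI replicate 2). The difference of Mrtfa was 0.59, and 0.92 without MI replicate 2 (limma adjusted p 0.000209), which at 1.179 FPKM lay within the sham range of 1.14 to 1.51 while the other MI mice were at 3.63 and 2.94 FPKM. Hopx, a homeodomain protein that binds SRF and restrains it, was at 132 to 157 FPKM in the sham-operated mice and at 33.6, 121 and 51.6 FPKM across MI replicates 1 to 3. Its difference was -1.20, that of Smyd1, a muscle histone methyltransferase, -0.68, that of the stretch-responsive cofactor Ankrd1 1.61 and that of Hdac7 0.68. They were -1.71, -0.93, 2.44 and 0.95, in the same order, without MI replicate 2 (limma adjusted p 8.12e-06 for Ankrd1), and for Ankrd1 that mouse, at 59.9 FPKM, lay within the sham range of 53.3 to 71.6. Among the other histone deacetylases that bind MEF2, Hdac9 was lower in every MI mouse (-0.27), Hdac5 higher in every MI mouse (0.21) and Hdac4 overlapped (-0.05). Zfpm2, the GATA partner FOG2, had a difference of -0.04. Leaving out MI replicate 2, the differences were -0.21 for Hdac9, 0.26 for Hdac5, -0.19 for Hdac4 and 0.00054 for Zfpm2.

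Target genes in cardiomyocytes were 25, all tested, with 4 higher and 8 lower at an unadjusted p under 0.05 (all genes 29.5% and 9.85%), 0 and 3 without overlap (16.1% and 9.0%) and a median of -0.29. The natriuretic peptide gene Nppa was at 69.7 to 185 FPKM in the sham-operated mice and at 7940, 160 and 8125 FPKM in the MI mice, replicates 1 to 3, and Nppb at 47.9 to 133 and at 643, 92.6 and 670 FPKM. In both, MI replicate 2 lay within the sham range. The differences were 4.22 for Nppa, 1.98 for Nppb and 0.98 for Myh7, the fetal myosin heavy chain, and -0.93 for Tnni3, cardiac troponin I, which is also in the cardiomyocyte list. Leaving out MI replicate 2, they were 6.10, 2.92, 1.46 and -1.39 in the same order. SRF targets of smooth muscle and the cytoskeleton were 14, of which 13 were tested, with 7 higher and 1 lower at an unadjusted p under 0.05 (all genes 29.5% and 9.85%), 4 and 1 without overlap (16.1% and 9.0%) and a median of 0.79. Ccn2, a matricellular growth factor, was at 11.7 to 16.3 FPKM in the sham-operated mice and at 220, 22.1 and 329 FPKM across MI replicates 1 to 3, a difference of 2.95 (limma adjusted p 0.108) that was 4.13 without MI replicate 2 (limma adjusted p 6.37e-06). Tagln, Ccn1 and Myl9 differed by 1.63, 1.37 and 1.16, also without overlap, and by 2.30, 1.97 and 1.70 without MI replicate 2. Of 8 immediate early SRF targets 5 were tested, with 1 higher and 0 lower at an unadjusted p under 0.05 (all genes 29.5% and 9.85%), 0 without overlap (16.1% higher and 9.0% lower of all genes) and a median of 1.12, and Junb, Egr1, Fos and Ier2 differed by 1.63, 1.20, 1.12 and 0.71. For these 4 genes MI replicate 2 lay within or below the sham range, and without it they differed by 2.41, 1.92, 1.82 and 1.17. The remaining tested gene, Nr4a1, differed by -0.44, and by 0.050 without MI replicate 2. In each of these 5 lists 0 genes were called at an adjusted p under 0.05 by limma. Without MI replicate 2 the calls were 5 higher and 2 lower for the other transcription factors, 11 and 6 for the cofactors, 5 and 15 for the cardiomyocyte targets, 11 and 1 for the smooth muscle and cytoskeletal targets, and 4 and 0 for the immediate early targets, beside 1 and 3 for the 9 tested transcription factors, where 57.0% of all genes were called higher and 14.7% lower.

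**Figure D4:**
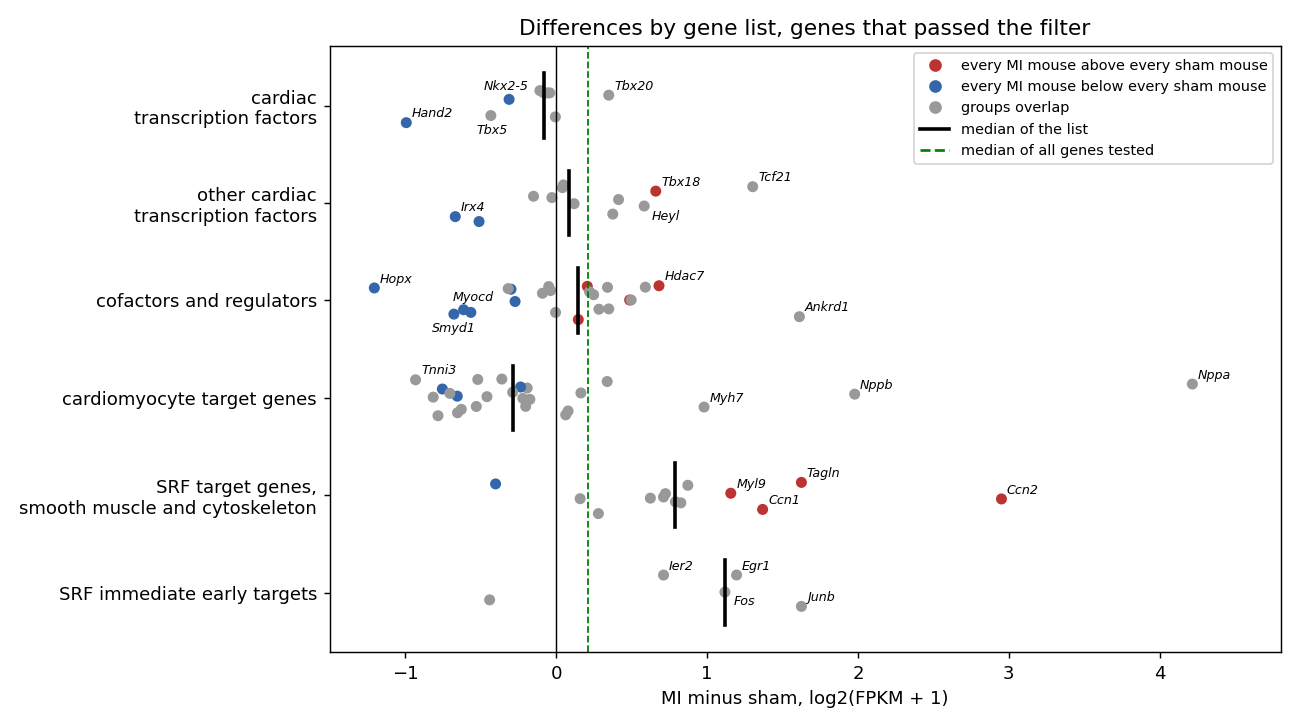
MI minus sham on the log2(FPKM + 1) scale (horizontal axis) for the genes of each list that passed the filter, with 1 point per gene, coloured where the 3 MI mice and 4 sham-operated mice do not overlap, a black bar at the list median and a dashed line at the median of all genes tested, 0.21. The cardiac transcription factors have a median of -0.08, the cardiomyocyte targets -0.29 and the smooth muscle and cytoskeletal SRF targets 0.79.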

How the data were processed

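Myocardial RNA of 7 mice, 1 library each, was sequenced, and the labels gave the groups. As deposited by the authors, the values are FPKM for 56980 genes. The submitters' processing notes name CASAVA 1.8, HISAT2, SAMtools 1.3.1, edgeR and the build mm10, while the counting program, its annotation and its use of strand are not given in the sources used here. All columns were used (0 left unused). Identifiers were joined to symbols in GENCODE M21 (GRCm38), which held 52073 of them. Whole fragments (tolerance 0.05, lengths of 20 to 120000 bases searched) were recovered for 11429 of the 11431 tested genes (99.98%). They gave the depths, and fragment numbers of a gene limit its precision. Replicates differed beyond sampling noise, with a chi-square per degree of freedom of 14.2 to 20.1 between sham-operated mice, 35.5 between MI replicates 1 and 3, and 386 to 469 between those and MI replicate 2.

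On the log2(FPKM + 1) scale, every gene at 1 FPKM or above in 3 or more mice entered a limma 3.58.1 fit in R 4.3.3 (eBayes, trend on), without covariates, with Benjamini-Hochberg adjustment over all of them at 0.05. Fold changes on this scale understate the change of low genes. Differences between family members and from the cardiomyocyte genes were tested by exact two-sided permutation over mice. Standard errors and p-values from limma rest on the spread between these mice, drawn toward that of other genes of like mean level. Those of the permutation tests rest on the values of these mice alone. The limma fit was tested on simulated data with independent noise at the spread of the sham group, which held no mouse like MI replicate 2. The permutation test was checked on a constructed clear split. The other steps ran under Python 3.11.15 with SciPy 1.17.1, NumPy 2.4.6, matplotlib 3.10.9 and pandas 2.3.3. All 10 members were named, and from the other lists the 4 tested genes with the largest difference plus the nearest relatives and partners. The members and lists were chosen with earlier results of these data known. Alternatives were a pseudocount of 0.1, no filter, 4 other scalings, limma with sample weights or with the trend off, voom on the fragments, a replicate block and each mouse left out.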

Additional observations from a re-analysis of the deposited data

How the results depend on the processing

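The count of transcription factor genes called at an adjusted p under 0.05 was 0 in both directions as reported and under every alternative but 2. With each mouse left out in turn, 0 to 1 were called higher and 0 to 3 lower, with calls appearing only without MI replicate 2. With sample weights 2 were called higher and 7 lower, but the estimation of these weights stopped before it converged and gave MI replicate 3 a weight of 437 against 0.0217 to 1.32 for the other mice. Over all genes this fit called 7636 higher and 2316 lower, the fit without MI replicate 2 called 6512 and 1683, and the reported fit 2 and 1. No filter gave 20 and 1, scaling by the median log-ratio or by quantiles 10 and 5, mitochondrial genes left out 8 and 3, a pseudocount of 0.1 gave 5 and 1, and each other mouse left out 0 to 4 and 0 to 1.

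Hand2 ranged from -1.24 to -0.82, Nkx2-5 from -0.56 to -0.12, Tbx5 from -0.68 to -0.30 and Tbx20 from 0.09 to 0.67, each with its sign kept under all alternatives. As TPM, Gata4 turned to 0.15, Gata6 to 0.071, Mef2a to 0.17, Mef2d to 0.11 and Srf to 0.13, and with sample weights Srf turned to 0.16. With each mouse left out, Gata4 ranged from -0.20 to 0.20, Gata6 from -0.19 to -0.035, Mef2d from -0.11 to -0.056, Mef2a from -0.20 to 0.35 and Srf from -0.17 to 0.0015. Relative to the cardiomyocyte genes, the change of Nkx2-5 turned to -0.11 with quantile normalization and ranged from -0.035 to 0.38 with each mouse left out, and that of Tbx5 turned to -0.11 with a pseudocount of 0.1 and to -0.25 with quantiles, and ranged from -0.038 to 0.083. With quantiles this change was -0.80 for Hand2, 0.52 for Tbx20, 0.14 for Gata4 and Srf, 0.050 for Gata6, 0.11 for Mef2d and 0.17 for Mef2a, and with each mouse left out it ranged from 0.10 to 0.60 for Gata4, 0.11 to 0.60 for Gata6, 0.14 to 0.75 for Mef2a, 0.20 to 0.93 for Mef2c, 0.24 to 0.53 for Mef2d, 0.23 to 0.63 for Srf and 0.59 to 1.21 for Tbx20. With each mouse left out, Gata4 minus Gata6 ranged from -0.089 to 0.30, Mef2a minus Mef2c from -0.50 to 0.052, Mef2a minus Mef2d from -0.10 to 0.43, Mef2c minus Mef2d from -0.040 to 0.40 and Tbx5 minus Tbx20 from -1.25 to -0.51. The cause was not tested. Mef2c, below the filter, had a fit only with no filter and no value with quantiles.

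The labels do not say that a replicate number pairs mice, and deviations from the group means correlated by 0.063, -0.0014 and -0.087 for numbers 1 to 3, so the numbers were not taken as pairs. With the replicate block, 0 of the 9 tested genes were called higher and 0 lower, and over all genes 0 and 0, with 2332 at an unadjusted p under 0.05 against 4496 without the block. The block gave Hand2 -0.96, Nkx2-5 -0.31 (unadjusted limma p 0.0896, against 0.00922 without it), Tbx5 -0.39 and Tbx20 0.32.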

Other observations

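The other cell type lists moved as follows between sham-operated mice and MI replicates 1 to 3, as summed FPKM. The 4 neutrophil markers (S100a8, S100a9, Csf3r, Retnlg) were at 0.300 to 1.27 and at 13.6, 0.485 and 7.25. The 6 endothelial markers were at 107 to 123 and at 133, 99.7 and 143. The 6 smooth muscle and pericyte markers were at 522 to 565 and at 900, 567 and 1034, and the 4 markers of cycling cells at 2.24 to 3.29 and at 11.5, 2.59 and 9.87. MI replicate 2 lay within or just outside the sham range in all 4 lists, as it did for Tbx5 and Tbx20 but not for Hand2, Nkx2-5 or Irx4.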
